A study of Mus musculus with 10 samples.

Results

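Leukocyte adhesion molecules are the surface proteins with which a circulating white blood cell slows down on, and then stops at, the vessel wall. They were followed here as 9 genes chosen by name from the textbook recruitment cascade: Icam1, Icam2, Vcam1, Sele and Selp on the endothelial side, and Selplg, Itgb2, Itgal and Itga4 on the leukocyte side. The choice was made with earlier results of these data known. All 9 of 9 were found in a count table of 51789 genes, and all 9 passed the filter on low counts that left 15232 genes for testing. The RNA came from cardiomyocytes isolated 4 days after myocardial infarction (MI), made by permanent coronary ligation, in 5 mice with cardiomyocyte-specific overexpression of G protein-coupled receptor kinase 5 (TgGRK5-MI) and in 5 non-transgenic littermate controls (NLC-MI), with 1 library per mouse. The mice of the study were 8 to 12 weeks old at surgery and of both sexes. The transgene acts in heart muscle cells, whereas the 9 genes are best known from endothelium and leukocytes. The transgene's promoter, the strain and the sex of each mouse are not given in the sources used here, every mouse compared had an infarct, and no sham library was analysed here. The question was whether the cell-adhesion transcripts of this preparation differed between genotypes at the early time point at which immune cells enter the infarct.

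In the cascade, P-selectin (Selp) and E-selectin (Sele) on activated endothelium catch P-selectin glycoprotein ligand (Selplg) on leukocytes, and the cell rolls. Firm arrest follows when the leukocyte integrins, αLβ2 (Itgal with Itgb2) and α4β1 (Itga4 with Itgb1), bind the immunoglobulin-family ligands ICAM and VCAM, encoded by Icam1, Icam2 and Vcam1. Icam1, Vcam1 and Sele are classical targets of inflammatory cytokines acting through NF-kappaB, whereas Icam2 is carried by resting endothelium. Cardiomyocytes stimulated by cytokines are also known to make ICAM-1.

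Upstream sequence is shown for Icam1 and Sele, the classical cytokine targets named above that the RefSeq promoter table held, as context for their values. Of the 9 genes, 4 had an entry there (Icam1, Sele, Selp and Itga4), on build GRCm38.p6. The 250 bases before the RefSeq start are written 5′ to 3′ on the gene's strand, from chr9:21015690-21015939 for Icam1 and chr1:164047984-164048233 for Sele, both on the plus strand. Capitals mark a match to GGANNTTCC read on either strand, a form of the NF-kappaB motif picked after the sequences had been seen.

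Icam1: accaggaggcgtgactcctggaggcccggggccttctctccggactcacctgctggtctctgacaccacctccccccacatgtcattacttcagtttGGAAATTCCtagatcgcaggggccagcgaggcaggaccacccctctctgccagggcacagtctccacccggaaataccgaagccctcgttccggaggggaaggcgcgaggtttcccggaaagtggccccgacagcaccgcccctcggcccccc
Sele: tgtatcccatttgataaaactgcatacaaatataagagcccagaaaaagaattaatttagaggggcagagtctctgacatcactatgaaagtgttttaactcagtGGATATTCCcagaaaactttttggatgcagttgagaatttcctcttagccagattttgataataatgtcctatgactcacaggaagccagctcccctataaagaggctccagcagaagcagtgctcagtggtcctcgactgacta

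The match in Icam1, GGAAATTCC, began 153 bases before the start and that in Sele, GGATATTCC, 145 bases before it. None was found in the windows of Selp and Itga4, and 3.59% of 32851 mouse promoters of the same length held such a match. The standard NF-kappaB consensus of 10 letters, searched on both strands, had 0 matches in each of the 4 windows and was found in 7.25% of all promoters. These letters describe the window and do not show that a factor was bound there in these cells.

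Libraries held 7968779 to 23381527 counts, the NLC-MI median being 20540815 and the TgGRK5-MI median 18337488, and 3 libraries (NLC-MI 3, TgGRK5-MI 3 and TgGRK5-MI 4) lay under 15000000. Values are given as CPM, counts scaled to a common library total with TMM factors, and 3 counts correspond to 0.121 to 0.393 CPM. Grk5 itself stood at 60.4 ± 9.50 CPM in the controls and at 1222 ± 472 CPM in TgGRK5-MI (SD, n = 5 each), with no overlap between groups, as the labels state. Cardiomyocyte markers (8 genes, among them Myh6) summed to 46173 to 121130 CPM, and the preparations also carried endothelial (11 genes, 943 to 1827 CPM), fibroblast (8 genes, 3791 to 21952 CPM) and leukocyte markers (7 genes, 172 to 559 CPM). In bulk RNA, fewer cells of a type and less RNA per cell cannot be told apart.

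Leukocyte adhesion transcripts were present in every library, but none differed between the genotypes beyond the spread between mice. With edgeR (quasi-likelihood F test, Benjamini-Hochberg adjustment over 15232 genes), 0 of the 9 genes had an adjusted p under 0.10, against 0.0788% of all genes tested (0.0525% higher and 0.0263% lower). At an unadjusted p under 0.05, again 0 of 9 passed, against 3.85% of all genes (1.77% higher and 2.08% lower). The groups were free of overlap for 0 of 9 genes, against 1.00% of all genes. The fitted log2 fold change (TgGRK5-MI against NLC-MI) was above 0 for 7 genes and below 0 for Sele and Selp, with a median of 0.21 beside 0.0013 over all genes tested. With limma-voom and added weights for the quality of each library (limma-voom below), only Vcam1 (0.22) and Itgb2 (0.06) were above 0. For 8 of the 9, the 95% interval lay within a 2-fold change in either direction, and Vcam1 was the exception. Adjusted p was 1 for each of the 9 (edgeR). Single-gene p-values below come from the same edgeR fit, beside a two-sided exact permutation test over the 252 placements of 5 and 5 libraries, whose smallest possible p is 0.00794.

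**Figure D1:**
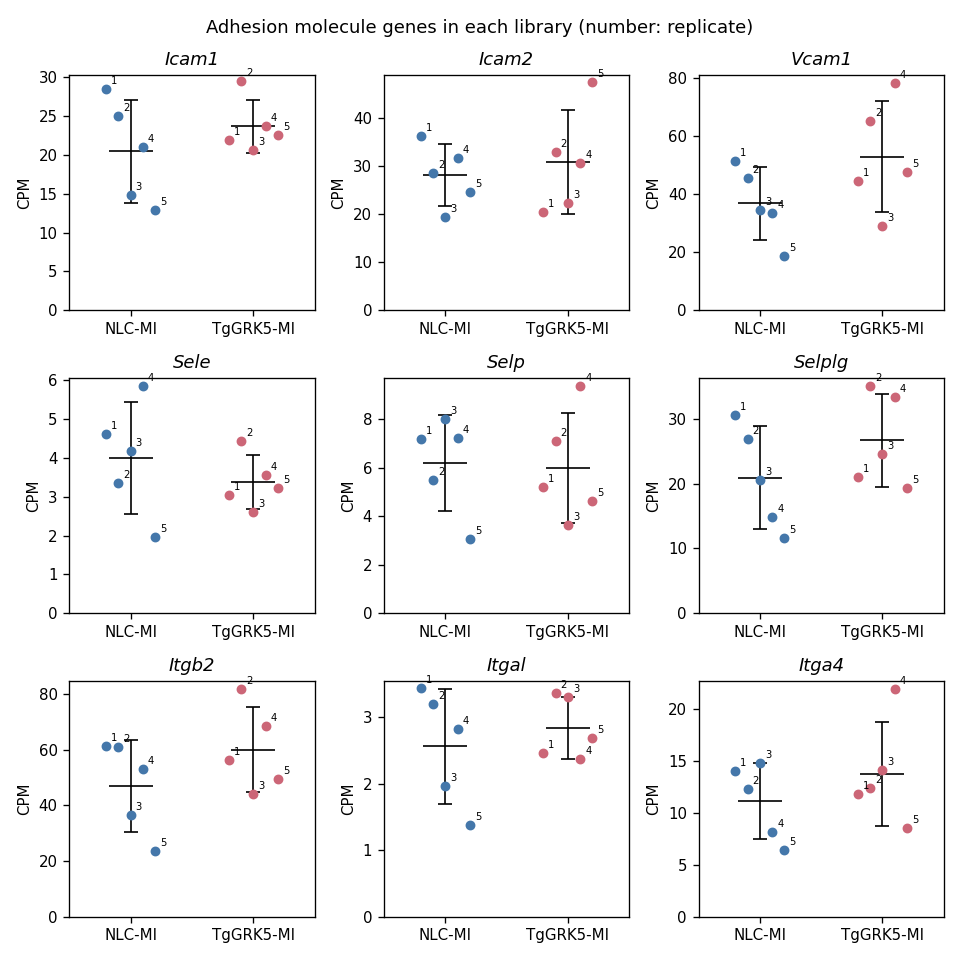
Level of each of the 9 genes in CPM (linear axis from 0), with 1 point per library labelled by its replicate number, a wide bar for the group mean and error bars for the SD (n = 5). The groups overlap in every panel, and NLC-MI 5 is the lowest of the 10 libraries for 8 of the 9 genes.

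Among the immunoglobulin-family ligands, Vcam1, the endothelial partner of α4β1, had the widest difference. It lay at 51.5, 45.6, 34.7, 33.4 and 18.7 CPM in NLC-MI 1 to 5 and at 44.4, 65.1, 29.0, 78.2 and 47.7 CPM in TgGRK5-MI 1 to 5. The 2 highest values were from TgGRK5-MI, 4 of 5 TgGRK5-MI libraries were above the NLC-MI mean, and TgGRK5-MI 1, 3 and 5 lay inside the control range. Means were 36.8 ± 12.6 (SD, n = 5) and 52.9 ± 19.1 CPM (n = 5), a fitted 1.44-fold (95% interval 0.917 to 2.25; log2 0.52, SE 0.30, edgeR p = 0.104, exact permutation p = 0.183). One library decided on which side of an unadjusted 0.05 this fell. Without TgGRK5-MI 3 the log2 fold change was 0.67 (edgeR p = 0.0347, adjusted p = 1, exact permutation p = 0.0714), and without NLC-MI 5 it was 0.35 (edgeR p = 0.219, exact permutation p = 0.357). Vcam1 is at chr3:116109949-116129688 (GRCm38, minus strand).

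Icam1, the cytokine-induced ligand of αLβ2 and αMβ2, varied less among TgGRK5-MI mice than among controls. NLC-MI 1 to 5 had 28.5, 25.0, 14.8, 21.0 and 12.9 CPM, and TgGRK5-MI 1 to 5 had 21.9, 29.5, 20.7, 23.7 and 22.6 CPM. Every TgGRK5-MI library was above the NLC-MI mean, yet NLC-MI 1 and 2 were above all of them but TgGRK5-MI 2. The means of 20.4 ± 6.62 (SD, n = 5) and 23.7 ± 3.44 CPM (n = 5) gave a log2 fold change of 0.21 (SE 0.22, 95% interval -0.27 to 0.69, edgeR p = 0.362, exact permutation p = 0.318). A difference in spread was not tested. Icam1 lies at chr9:21015985-21028817 (plus strand).

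Icam2, a ligand of αLβ2 present on unstimulated endothelium, was 36.3, 28.5, 19.4, 31.7 and 24.7 CPM in NLC-MI 1 to 5. In TgGRK5-MI 1 to 5 it was 20.4, 32.9, 22.2, 30.6 and 47.6 CPM. TgGRK5-MI 5 was the highest library, while the other four lay between the lowest and the highest controls. The means were 28.1 ± 6.49 (SD, n = 5) and 30.7 ± 10.8 CPM (n = 5), log2 0.13 (SE 0.24, 95% interval -0.40 to 0.66, edgeR p = 0.611, exact permutation p = 0.738), and without TgGRK5-MI 5 the sign turned to -0.09. Its locus is chr11:106377656-106388075 (minus strand).

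Both endothelial selectins were scarce, and their group means were level or lower in TgGRK5-MI. Sele read 4.63, 3.36, 4.19, 5.86 and 1.96 CPM in NLC-MI 1 to 5 and 3.04, 4.45, 2.61, 3.55 and 3.22 CPM in TgGRK5-MI 1 to 5. Only 1 of 5 TgGRK5-MI libraries was above the NLC-MI mean, but NLC-MI 5 was below them all. The means, 4.00 ± 1.45 (SD, n = 5) and 3.38 ± 0.692 CPM (n = 5), differed by -0.24 on the fitted log2 scale (SE 0.28, 95% interval -0.86 to 0.37, edgeR p = 0.404, exact permutation p = 0.556), and by -0.42 without NLC-MI 5 (edgeR p = 0.0999). These values rest on 30 to 125 counts per library.

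Selp, whose product is stored in granules of endothelium and of platelets, was 7.18, 5.51, 7.98, 7.23 and 3.08 CPM in NLC-MI 1 to 5 and 5.19, 7.11, 3.65, 9.37 and 4.62 CPM in TgGRK5-MI 1 to 5. The genotypes were interleaved over the whole range, and the sign of the fitted difference turned when NLC-MI 1, 3 or 4 or TgGRK5-MI 3 or 5 was left out (up to 0.071). The means of 6.19 ± 1.96 (SD, n = 5) and 5.99 ± 2.27 CPM (n = 5) gave log2 -0.05 (SE 0.31, 95% interval -0.72 to 0.62, edgeR p = 0.873, exact permutation p = 0.841). Platelet markers (5 genes) summed to 41.6 ± 17.2 (SD, n = 5) and 43.0 ± 12.5 CPM (n = 5, exact permutation p = 0.770), and their part in Selp was not tested. Most of this sum was Pf4, with means of 35.7 and 39.3 CPM, and Itga2b had 1.69 and 1.75 CPM. The others had lower means in TgGRK5-MI. Ppbp was at 3.69 ± 3.84 and 1.83 ± 1.05 CPM (SD, n = 5 each, exact permutation p = 0.318). Gp1ba had at most 10 counts in any library. Gp9 had at most 3, near the floor (0.154 and 0.0282 CPM, exact permutation p = 0.0238, unadjusted). Sele (chr1:164048234-164057677) and Selp (chr1:164115264-164150026) lie on the same strand of chromosome 1.

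On the leukocyte side, all 4 fitted differences were above 0, with a median of log2 0.32, but with limma-voom only Itgb2 was (log2 0.06). Selplg, the ligand by which leukocytes roll on both endothelial selectins, was 30.5, 26.9, 20.5, 14.8 and 11.7 CPM in NLC-MI 1 to 5. It was 21.0, 35.1, 24.5, 33.4 and 19.3 CPM in TgGRK5-MI 1 to 5. The 2 lowest libraries were controls and the 2 highest carried the transgene, with the rest interleaved. Means of 20.9 ± 7.92 (SD, n = 5) and 26.7 ± 7.20 CPM (n = 5) gave log2 0.35 (SE 0.27, 95% interval -0.25 to 0.95, edgeR p = 0.226, exact permutation p = 0.230). Selplg is at chr5:113818536-113832644 (minus strand).

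Itgb2, the β2 chain shared by the leukocyte-specific integrins, was 61.1, 61.0, 36.4, 53.1 and 23.6 CPM in NLC-MI 1 to 5 and 56.4, 81.7, 43.9, 68.4 and 49.4 CPM in TgGRK5-MI 1 to 5. As for Selplg, TgGRK5-MI 2 and 4 were the highest libraries, and NLC-MI 5 was the lowest. The means were 47.0 ± 16.5 (SD, n = 5) and 59.9 ± 15.2 CPM (n = 5), log2 0.35 (SE 0.26, 95% interval -0.23 to 0.93, edgeR p = 0.212, exact permutation p = 0.246). The gene spans chr10:77530252-77565708 (plus strand).

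Itgal, the αL chain that pairs with β2 on most leukocytes and dominates on lymphocytes, was the scarcest gene, at 15 to 79 counts per library. Its CPM were 3.44, 3.20, 1.96, 2.82 and 1.37 in NLC-MI 1 to 5, and 2.46, 3.36, 3.30, 2.37 and 2.68 in TgGRK5-MI 1 to 5. The TgGRK5-MI values all lay within the control range. The log2 fold change was 0.13 (SE 0.27, 95% interval -0.45 to 0.71, edgeR p = 0.638, exact permutation p = 0.484) between means of 2.56 ± 0.866 (SD, n = 5) and 2.84 ± 0.467 CPM (n = 5), and -0.04 without NLC-MI 5. Itgal is at chr7:127296260-127335138 (plus strand).

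Itga4, the α4 chain that binds VCAM-1, was 14.0, 12.3, 14.8, 8.12 and 6.41 CPM in NLC-MI 1 to 5 and 11.8, 12.3, 14.1, 21.9 and 8.48 CPM in TgGRK5-MI 1 to 5. Apart from TgGRK5-MI 4, the transgenic libraries lay within the control range. The means of 11.1 ± 3.68 (SD, n = 5) and 13.7 ± 4.99 CPM (n = 5) differed by log2 0.30 (SE 0.29, 95% interval -0.33 to 0.93, edgeR p = 0.318, exact permutation p = 0.381), and by 0.075 when TgGRK5-MI 4 was left out. It lies at chr2:79255426-79333123 (plus strand), where 1124 of its 13978 exon bases are shared with Cerkl on the opposite strand. Cerkl had 2 to 29 counts per library, and whether the counting used strand is not given in the sources used here. Antisense transcripts over exons of Icam1, Vcam1 and Selp had at most 1 count in any library.

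**Figure D2:**
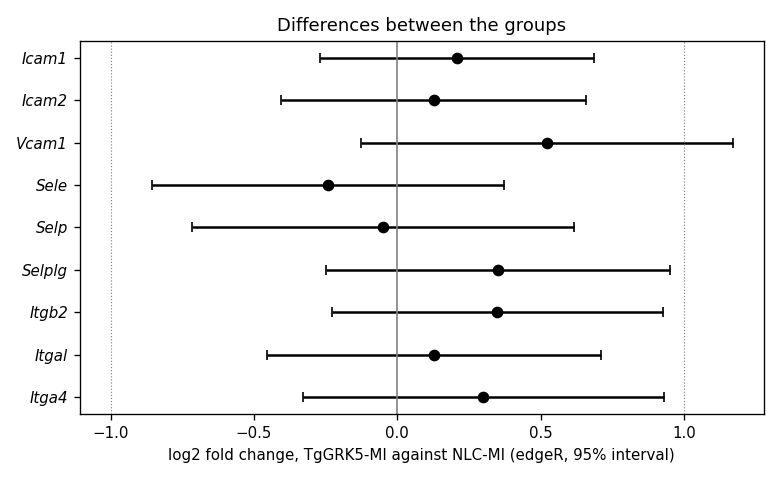
Fitted log2 fold change of TgGRK5-MI against NLC-MI for each gene (points) with its 95% interval (bars) from edgeR, n = 5 per group, and dotted lines at a 2-fold change. Every interval spans 0, and only that of Vcam1, -0.13 to 1.17, reaches past a dotted line.

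Libraries of the same genotype differed widely. Between the lowest and the highest library, the 9 genes ranged over 1.87-fold (Icam2) to 2.99-fold (Sele) in NLC-MI and over 1.42-fold (Itgal) to 2.69-fold (Vcam1) in TgGRK5-MI. NLC-MI 5 was the lowest of the 10 libraries for 8 genes, the exception being Icam2, which was lowest in NLC-MI 3. The highest library was TgGRK5-MI 2 for 3 genes and TgGRK5-MI 4 for 3 genes. NLC-MI 5 also had the lowest summed leukocyte markers (172 CPM, against 323 to 559 CPM elsewhere) and the highest summed cardiomyocyte markers (121130 CPM), and TgGRK5-MI 2 and 4 had the highest leukocyte markers (559 and 549 CPM). Without NLC-MI 5 the log2 fold changes were 0.07 for Icam1, 0.07 for Icam2, -0.23 for Selp, 0.19 for Selplg, 0.17 for Itgb2 and 0.15 for Itga4, beside those already given for Vcam1, Sele and Itgal.

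**Figure D3:**
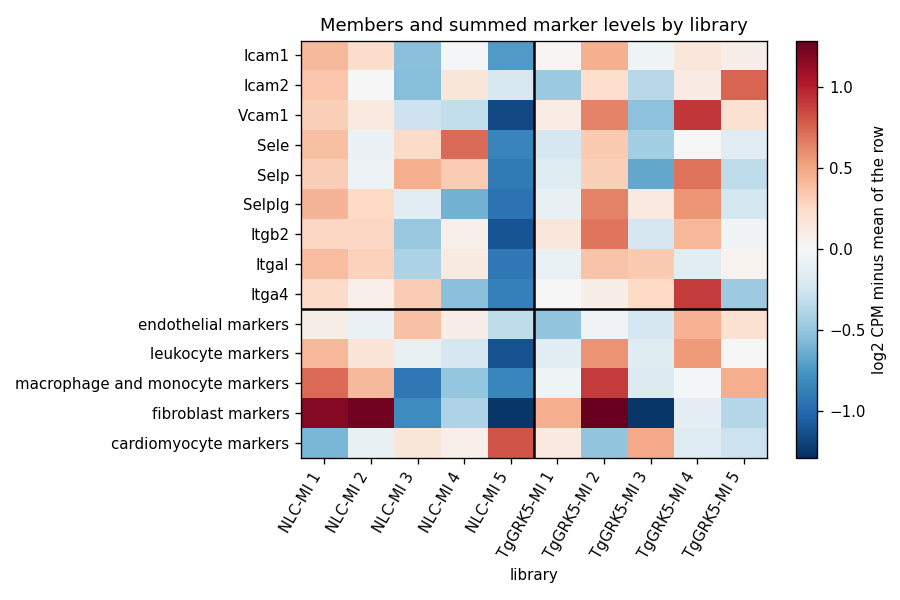
Colour gives log2 CPM minus the row's mean over the 10 libraries (columns) for the 9 genes and, under the line, for 5 summed marker lists. NLC-MI 5 is low (blue) for 8 genes and for the leukocyte markers (172 CPM) and high (red) for cardiomyocyte markers (121130 CPM).

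The other cells in the preparations were compared in the same libraries. Leukocyte markers summed to 354 ± 123 CPM in the controls (range 172 to 503) and 433 ± 112 CPM in TgGRK5-MI (range 337 to 559, SD, n = 5 each), a log2 difference of 0.34 (exact permutation p = 0.333). The lowest sum, 172 CPM, was that of NLC-MI 5, and the other controls had 323 to 503 CPM. The difference without NLC-MI 5 was not computed. Of the single genes, 7 of 7 had a fitted log2 fold change above 0 with NLC-MI 5 included, against 7646 of all 15232 genes tested. Macrophage and monocyte markers (10 genes) were at 1203 ± 639 and 1528 ± 515 CPM (SD, n = 5 each, exact permutation p = 0.270), with 9 of 10 above 0. Neutrophil markers (7 genes) were at 18.6 ± 6.19 and 19.7 ± 7.04 CPM (SD, n = 5 each, exact permutation p = 0.810). Of these, Ly6g, which defines mouse neutrophils, had at most 1 count in any library, and Mpo and Retnlg at most 11 and 10. The others were counted in every library, Csf3r at 41 to 315, Cxcr2 at 29 to 110, S100a9 at 15 to 106 and S100a8 at 12 to 81 counts. Lymphocyte markers (7 genes) were at 1.65 ± 0.654 and 2.04 ± 0.840 CPM (SD, n = 5 each, exact permutation p = 0.444). Only 1 of the 7, Cd79a, passed the filter on low counts. Cd3e had at most 4 counts in any library, and Cd3d, Cd3g and Nkg7 at most 7, so this sum lies near the floor. Endothelial markers were at 1383 ± 248 CPM (SD, n = 5; range 1071 to 1746) and 1355 ± 342 CPM (n = 5; range 943 to 1827, exact permutation p = 0.802), with 4 of 11 above 0. Whether these amounts account for any difference in the adhesion genes was not tested.

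Each gene was then set against the markers of its own side of the cascade, the endothelial sum for the ligands and endothelial selectins and the leukocyte sum for the rest. Vcam1 was 2.67 ± 0.904% of the endothelial sum in NLC-MI (SD, n = 5; range 1.75 to 3.65%) and 3.92 ± 1.07% in TgGRK5-MI (n = 5; range 2.51 to 4.99%). The log2 difference was 0.57 and the groups overlapped (exact permutation p = 0.0873). It was 0.72 without TgGRK5-MI 3 (exact permutation p = 0.0476), 0.44 without NLC-MI 5 (exact permutation p = 0.183) and 0.43 with Pecam1 alone as denominator (exact permutation p = 0.206). Per leukocyte level, Vcam1 was not compared between the groups. Over the 10 libraries its log2 values spread less per leukocyte level (SD 0.21) than per endothelial level (SD 0.53). For the other endothelial-side genes, the log2 differences of this ratio were 0.31 for Icam1 (exact permutation p = 0.294), 0.14 for Icam2 (p = 0.667), -0.13 for Sele (p = 0.619) and -0.0049 for Selp (p = 1). Per leukocyte marker level, Selplg was 5.93 ± 0.828% and 6.17 ± 0.766% (SD, n = 5 each; log2 0.06, exact permutation p = 0.635). Itgb2 was 13.4 ± 2.31% and 13.9 ± 1.64% (SD, n = 5 each; log2 0.06, exact permutation p = 0.667). The remaining 2 lay below 0, Itgal at log2 -0.13 (exact permutation p = 0.611) and Itga4 at -0.03 (exact permutation p = 0.905). These ratios depended on the denominator. With Ptprc alone in place of the leukocyte list, the log2 differences were 0.28 for Selplg (exact permutation p = 0.254), 0.28 for Itgb2 (exact permutation p = 0.119), 0.09 for Itgal (exact permutation p = 0.825) and 0.19 for Itga4 (exact permutation p = 0.667).

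Dividing by either marker list also changed how far the libraries spread, a description made after the values had been seen. Per leukocyte marker level, the SD of log2 values over the 10 libraries went from 0.51 to 0.19 for Selplg and from 0.51 to 0.20 for Itgb2. Vcam1 went from 0.59 to 0.21 and Icam1 from 0.38 to 0.26, although both are counted here among the endothelial-side genes. Per endothelial marker level they were at 0.53 and 0.46. Icam2 did not narrow with either list, at 0.40 in CPM, 0.40 per endothelial and 0.50 per leukocyte level. Selp narrowed from 0.52 to 0.37 per endothelial and 0.36 per leukocyte level, and Sele from 0.45 to 0.39 and 0.42. Itga4 went from 0.51 to 0.46 per endothelial and 0.36 per leukocyte level, and Itgal from 0.42 to 0.50 and 0.34. These ratios share their libraries and scaling with the CPM.

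**Figure D4:**
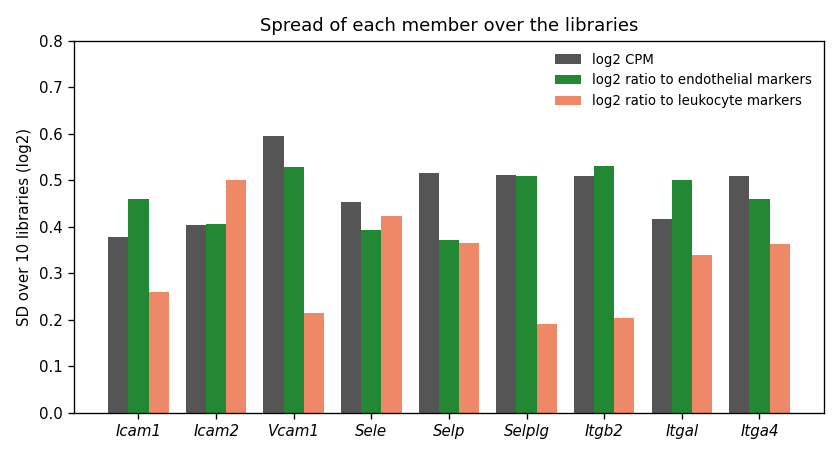
Bars from 0 give the SD over the 10 libraries (log2 units) of each gene's CPM and of its ratio to summed endothelial or leukocyte markers. The bar per leukocyte markers is the lowest of the 3 for 7 genes, down to 0.19 for Selplg, but not for Sele (0.42), and for Icam2 it is the highest (0.50).

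Per kilobase of exon (RPKM, the CPM divided by merged exon length), the members spanned from 17.5 ± 5.39 for Itgb2 to 0.410 ± 0.102 for Itgal (SD, n = 10 libraries). Between them lay Icam2 (15.5 ± 4.48), Selplg (5.56 ± 1.82), Icam1 (5.06 ± 1.21), Vcam1 (5.06 ± 1.97), Selp (1.38 ± 0.455), Sele (1.27 ± 0.386) and Itga4 (0.888 ± 0.311 RPKM). Neighbours in this order were compared within libraries by a two-sided exact sign-flip permutation test, adjusted by Benjamini-Hochberg over 8 pairs. Icam2 exceeded Selplg 2.83-fold, Vcam1 exceeded Selp 3.60-fold and Itga4 exceeded Itgal 2.12-fold, each in 10 of 10 libraries (exact permutation p = 0.00195, the smallest it can give; adjusted p = 0.00521). Sele exceeded Itga4 1.44-fold in 8 of 10 libraries (exact permutation p = 0.0156, adjusted p = 0.0312). This was 1.71-fold in 5 of 5 NLC-MI libraries (exact permutation p = 0.0625, the smallest that 5 can give) and 1.22-fold in 3 of 5 TgGRK5-MI libraries (exact permutation p = 0.375). This step rests on merged exon length, 13978 bases over 5 annotated transcripts for Itga4 and 2912 over 1 for Sele. In CPM, Itga4 was the higher (means 11.1 in NLC-MI and 13.7 in TgGRK5-MI, against 4.00 and 3.38 for Sele). Which transcripts were present was not determined, so the order per length is uncertain. The order was not resolved for Itgb2 over Icam2 (adjusted p = 0.377 by the exact permutation test), Selplg over Icam1 (0.377), Icam1 over Vcam1 (0.607) or Selp over Sele (0.377). Taken alone, NLC-MI and TgGRK5-MI libraries gave the same order but for Icam1 and Vcam1, which changed places.

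**Figure D5:**
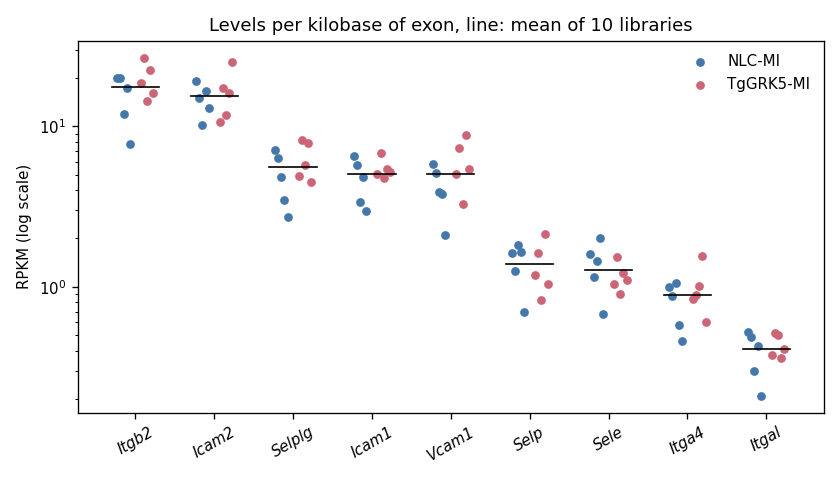
Level of each gene in RPKM (CPM per kilobase of exon, log axis), with 1 point per library coloured by group and a line at the mean of the 10 libraries. From Itgb2 (17.5 RPKM) to Itgal (0.410 RPKM) the levels fall in steps, with Selplg, Icam1 and Vcam1 at 5.06 to 5.56 RPKM.

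The chains with which these integrins pair were at other levels. Per length, Itgb2 was 42.0 times Itgal (28.6 to 62.1 over the 10 libraries) but 1.59 times Itgam (1.29 to 1.89), the αM chain of macrophages and neutrophils, and Itgam was 26.4 times Itgal (19.5 to 43.8). Most exon bases of Itgam (3450 of 5024) also belong to an overlapping annotated gene on the same strand, so its level is uncertain. Itgb1, the α4 partner, was 243 times Itga4 (140 to 395). Heart muscle, endothelium and fibroblasts also use Itgb1, and their part in this ratio was not tested. That ratio, too, depends on the merged exon length of Itga4 (13978 bases). Icam2 was 3.03 times Icam1 (2.13 to 4.82). No difference of these ratios between the genotypes passed an exact permutation p of 0.05, the lowest p being 0.294, for Vcam1 over Icam1.

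Around the 9 genes, 48 further genes of the cascade were listed, of which 47 were found in the table and 39 were tested. Of these, 0 passed an adjusted p of 0.10 and 0 an unadjusted p of 0.05 (edgeR), while 23 were above 0 and 16 below, with a median log2 fold change of 0.03. The selectin ligands and the enzymes that glycosylate them (10 of 14 tested) had a median of 0.04. Integrin partner chains (5 of 7 tested) had a median of 0.03 and the integrin activation genes (8 of 8) one of 0.06. In the latter, Cyth1, which regulates β2 integrin adhesion, had the lowest p of the 39, at 53.8 ± 9.78 and 43.5 ± 8.52 CPM (SD, n = 5 each), a fitted log2 difference of -0.31 (SE 0.18, edgeR p = 0.117, exact permutation p = 0.143). Junction and transmigration genes (9 of 10) had a median of -0.03, the genes that anchor or store the ligands (5 of 5) 0.09, and the other immunoglobulin-family ligands (2 of 4) 0.16.

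For each member, the genes whose log2 CPM ran closest to it over the 10 libraries were sought among 15231 genes, as a description. Icam1 was closest to Cfi (Pearson r = 0.988), Ncf1 (0.975) and Rps6ka1 (0.970), and Icam2 to Sdcbp2 (0.942), Prkch (0.941) and Gm33180 (0.932). Vcam1 ran with Platr25 (0.979) and Ppp1r21 (0.974). The nearest to Sele were Eaf1 (0.957), Ubash3b (0.937) and Cdt1 (0.915), and to Selp Mcm4 (0.972), Rad18 (0.967) and Efnb2 (0.960). Selplg ran with Gpsm3 (0.985), Cyp4v3 (0.977) and Laptm5 (0.977), the last of which is in the leukocyte marker list. Itgb2 ran with Pak1 (0.987) and Rab32 (0.986), Itgal with Dyrk3 (0.947), Gm5150 (0.934) and P4ha1 (0.932), and Itga4 with Taok3 (0.973), Eps15 (0.969) and Ryk (0.962). With 10 libraries and so many genes searched, high coefficients arise easily, and all points share the same libraries, depth and cell make-up.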

How the data were processed

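RNA of isolated cardiomyocytes was sequenced from TruSeq v2 libraries, and the authors deposited whole-number read counts per Ensembl gene for 10 samples. The submitters' processing notes name Bowtie2, RSEM 1.2.31, DESeq2 and build mm10, without their order, and whether the counts are rounded RSEM estimates is not given in the sources used here. Gene symbols, positions and exon lengths came from GENCODE M21 on GRCm38 (51596 of 51789 identifiers matched). Groups followed the labels. Counts were tested in edgeR 4.0.16 (R 4.3.3; TMM scaling, default expression filter by group, quasi-likelihood F test) over all 15232 genes kept, with Benjamini-Hochberg adjustment and the study's 10% false discovery rate. Exact permutation tests used log2 CPM with a prior count of 2. Summed CPM of marker lists served as denominators of the ratios. Genes named were all 9 members, Grk5, set partner genes, pathway genes at an unadjusted p under 0.05, and the 3 genes most alike to each member. Cyth1 was also named for its low p within the pathway lists, and a few genes that these rules name are not reported here. The members and lists were chosen with earlier results of these data known. Alternatives were RLE scaling, library size alone, DESeq2 1.42.0, limma-voom with sample quality weights (limma 3.58.1), other count filters and another prior count. Further ones were Pecam1 or Ptprc alone as denominator, a replicate block, a covariate for sex-linked expression and each library left out. The 7 libraries with at least 15000000 counts were also used alone, an alternative added after the data had been seen. The scripts were tested on simulated data. Totals ran from 7968779 to 23381527 counts, so the scarcest member, Itgal, rests on 15 to 79 counts per library. The 5 replicates of a group are separate mice.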

Additional observations from a re-analysis of the deposited data

Results flagged for a closer look

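Of 58 sets of 5 libraries examined for 1 sample far from the others, 2 stood out, where chance gives about 1 in 20 sets. Icam2 was 1.11% of the summed endothelial markers in NLC-MI 3, below the 2.23 to 2.57% of the other NLC-MI libraries. Without NLC-MI 3 the log2 difference of this ratio was -0.073 in place of 0.14. Red cell markers summed to 411.9 CPM in NLC-MI 3 against 9.49 to 30.5 CPM in the other NLC-MI libraries. NLC-MI 3 is also the library with the fewest counts.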

How the results depend on the processing

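None of the 9 genes passed an adjusted p of 0.10 under any of 19 alternatives, the lowest adjusted p being 0.699 (Sele, limma-voom). Vcam1 and Itgb2 kept the sign of the log2 fold change in 19 of 19 alternatives, Icam1, Sele, Selplg and Itga4 in 18, Icam2 and Itgal in 17, and Selp in 13. With limma-voom, log2 fold changes reversed to -0.021 (Icam1), -0.016 (Icam2), -0.0070 (Selplg), -0.14 (Itgal) and -0.017 (Itga4). With sex-linked expression as covariate, they reversed to 0.078 (Sele) and 0.25 (Selp). With Pecam1 or Ptprc alone as denominator, the ratios reversed to -0.0005 (Icam2), 0.092 (Itgal) and 0.19 (Itga4). In the 7 deeper libraries, the Selp difference in mean log2 CPM reversed to 0.024, the Selp ratio to 0.079 and the Selplg ratio to -0.017. In TgGRK5-MI alone, Icam1 lay at -0.066 from Vcam1 (log2 RPKM). The cause was not tested.

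Leaving out each library in turn gave log2 fold changes of -0.086 to 0.23 (Icam2), -0.25 to 0.071 (Selp) and -0.036 to 0.25 (Itgal), and 0 to 1 members at an unadjusted p under 0.05. Differences in mean log2 CPM were -0.080 to 0.22 (Icam2) and -0.28 to 0.10 (Selp). Log2 ratios were -0.073 to 0.24 (Icam2), 0.44 to 0.72 (Vcam1), -0.28 to 0.016 (Sele), -0.15 to 0.12 (Selp), -0.029 to 0.13 (Selplg), -0.027 to 0.14 (Itgb2), -0.27 to 0.028 (Itgal) and -0.14 to 0.087 (Itga4). Over all genes, 2 to 7 were higher and 1 to 3 lower at adjusted p under 0.10, and 175 to 591 higher and 264 to 537 lower at unadjusted p under 0.05, against 8, 4, 269 and 317 with all libraries. At unadjusted p, the counts moved most without NLC-MI 3 (591 higher, 478 lower), NLC-MI 5 (443 higher), TgGRK5-MI 3 (175 higher) and NLC-MI 1 (537 lower).

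Genes higher and lower at adjusted p under 0.10 numbered 42 and 27 with DESeq2, 41 and 9 with limma-voom, 3 and 1 with the sex-linked covariate, and 5 and 1 in the deeper libraries. The number higher was 13 with library size alone, 13 with no filter and 4 with at least 10 counts in every library. At unadjusted p under 0.05, DESeq2 gave 493 lower, limma-voom 1138 higher and 672 lower, no filter 516 and 647, and the covariate 406 higher. The replicate block gave 5 higher and 3 lower genes and 0 members. Its lowest edgeR p among the members were 0.0588 for Itgb2, 0.0855 for Vcam1 and 0.130 for Selplg. Same-numbered samples correlated at -0.34 to 0.66 (mean 0.17, against -0.027 for other numbers), and only number 2 correlated best with its own number. The labels do not say that the numbers pair the samples, and 5 such correlations cannot exclude it. Depth limits Itgal and Sele most, at as few as 15 and 30 counts.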
